A study of Mus musculus with 28 samples.

Results

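The 10 genes described here carry out or sense the transport of calcium and magnesium along the kidney tubule: Trpv5, Calb1, S100g, Slc8a1, Atp2b1, Trpm6, Cldn16, Cldn19, Cnnm2 and Casr. They were listed by their known roles in transport, by a rule that uses no measured value but was written with earlier results of these data known, and were matched by Ensembl identifier among the 54446 genes counted. RNA was sequenced from liver and kidney of male C57BL/6 mice (C57BL6J in the article), 8 weeks old. The mice were gavaged for 7 days with NMN (nicotinamide mononucleotide, a precursor of NAD+) or with water. In kidney, 4 NMN and 4 water mice belonged to the 1340 mg/kg/d schedule and 3 NMN and 3 water mice to the 2680 mg/kg/d schedule, in which the mice were gavaged more often per day. The labels name no genetic change and no other agent in any group. The comparison asks whether the mRNA of these genes differed with oral NMN in whole kidney.

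Most filtered calcium and magnesium is taken back before the last parts of the tubule, and the fine control is exerted further downstream. In the thick ascending limb both ions pass between the cells, through pores built from claudin-16 and claudin-19, driven by a voltage that the salt transport of these cells sets up, and the calcium-sensing receptor (Casr) restrains this route when blood calcium is high. In the late distal convoluted tubule and the connecting tubule, calcium enters the cell through the channel TRPV5, is carried by the calbindins (Calb1 and S100g) and leaves through the sodium-calcium exchanger NCX1 (Slc8a1) and the pump PMCA1 (Atp2b1), while magnesium enters the distal convoluted tubule through TRPM6 and depends on CNNM2 at the basolateral side.

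At 1340 mg/kg/d, 9 of the 10 genes had a higher fitted level with NMN (50.3% of all genes tested), led by Slc8a1 and Trpv5 at close to 1.5-fold, and at 2680 mg/kg/d 6 of 10 did (50.8%). In edgeR none of the 10 reached the threshold, an adjusted p under 0.05, in either schedule or in both together, where 0.12%, 0.4% and 1.28% of all genes did. Trpv5 came nearest, with an adjusted p of 0.0518 over both schedules, and was called by DESeq2, as 3.28% of all genes were. Between the water mice of the schedules, in which edgeR called 18.3% of all genes, Trpv5 and S100g were higher and Atp2b1 lower in the 2680 mg/kg/d schedule.

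The RefSeq promoters of Trpv5 and S100g are shown because these genes differed most between the water mice of the schedules. Each sequence is the 250 bases before the transcription start, 5′ to 3′ on the minus strand of GRCm38.p6, with capitals marking exact matches to TATAAA (the core of many start sites) or to AGGTCA (a half-site of nuclear receptors), either one searched on both strands.
Trpv5, chr6:41680724-41680973: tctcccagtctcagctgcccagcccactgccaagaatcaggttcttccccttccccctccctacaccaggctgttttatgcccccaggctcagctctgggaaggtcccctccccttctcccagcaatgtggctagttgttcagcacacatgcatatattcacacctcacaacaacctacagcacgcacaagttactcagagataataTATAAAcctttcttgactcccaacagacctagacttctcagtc
S100g, chrX:162964600-162964849: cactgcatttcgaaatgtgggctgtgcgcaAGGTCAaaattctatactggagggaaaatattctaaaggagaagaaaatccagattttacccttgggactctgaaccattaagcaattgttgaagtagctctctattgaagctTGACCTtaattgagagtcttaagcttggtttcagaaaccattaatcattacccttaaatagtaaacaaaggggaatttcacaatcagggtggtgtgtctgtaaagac

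Trpv5 held 1 match to TATAAA, which began 43 bases before the start, and none to AGGTCA. S100g held 2 matches to AGGTCA, which began 220 and 107 bases before the start, and none to TATAAA. The letters do not overlap between the motifs. Among all 32851 promoters of that length in the table, 12.4% held TATAAA and 14% held AGGTCA on either strand, so that a match by itself is not rare. The table had promoters for 9 of the 10 genes, with 11 start sites in all, and the other 7 genes had neither motif in this window. A match is a description of the letters and not a site at which a factor was measured.

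Levels between genes can only be compared per length, as RPKM (CPM, the counts scaled to library size over the 14 kidney libraries, per kilobase of merged exons). In the water mice of the 1340 mg/kg/d schedule, S100g was by far the most abundant at 805 ± 71.6 RPKM (SD, n = 4), followed by Calb1 at 72.8 ± 10.6 RPKM. The other 8 genes lay between 1.10 RPKM for Slc8a1 and 7.82 RPKM for Cldn19. The S100g level was 11.2 ± 1.97 times that of Calb1 in these mice (SD, n = 4). In the order of levels, Cldn19, Cnnm2, Cldn16, Atp2b1, Casr and Trpv5 could not be separated from their neighbours, since the libraries of each overlapped those of the next in this group. Trpm6 at 2.54 RPKM and Slc8a1 lay below all of them without overlap. S100g and Calb1 kept the first and Slc8a1 the last place in all 4 kidney groups. Trpv5 was in place 8 in the water mice at 1340 mg/kg/d and in place 5 in those at 2680 mg/kg/d.

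**Figure D1:**
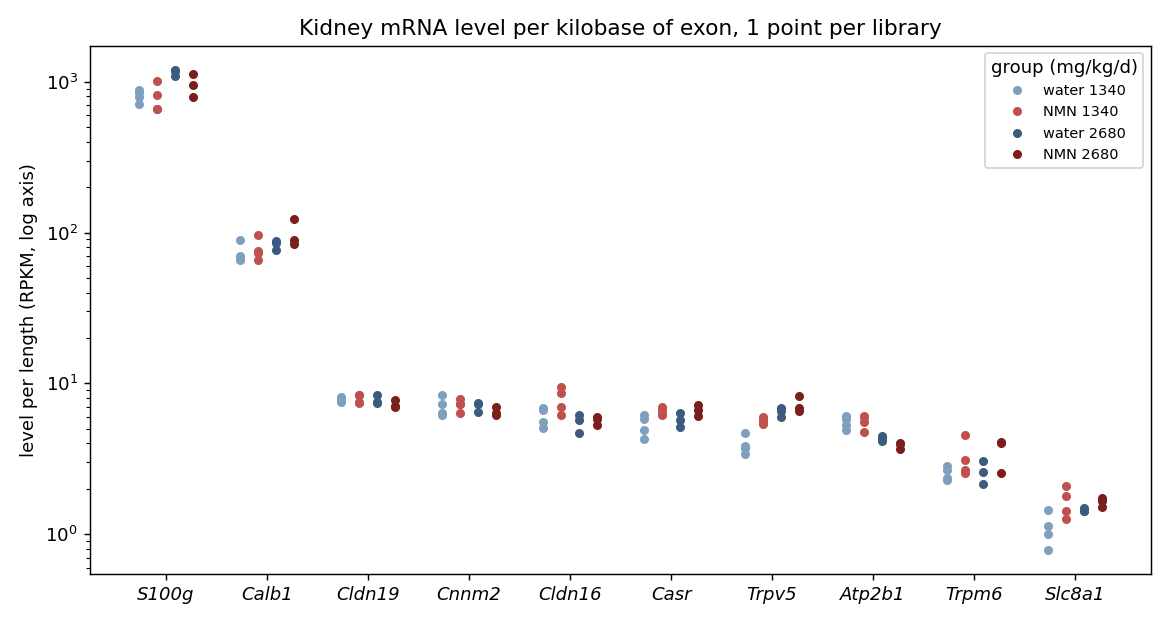
Level per length (RPKM, log axis) of the 10 genes, with 1 point for each of the 14 kidney libraries and the groups side by side. S100g and Calb1 stand far above the other 8 genes, which lie between about 1 and 10 RPKM.

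The kidney label was checked against markers. The solute carrier Slc34a1 of the proximal tubule averaged 6412 CPM and the thick limb protein gene Umod 2111 CPM in the water mice at 1340 mg/kg/d, and no tubule marker was at 0 throughout. In liver, Trpv5 and Cldn16 had 0 counts in all 14 libraries. A count of 0 allows up to 3 counts in a library, for counting error only. Atp2b1, a pump that most cells use, reached 35.2 ± 5.36 CPM (SD, n = 4) and Cnnm2 6.86 ± 1.48 CPM in liver from water mice at 1340 mg/kg/d. The other 6 genes averaged at most 1.09 CPM in any liver group. In whole kidney, fewer cells of a type and less RNA per cell cannot be told apart.

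The mRNA of Trpv5 (ENSMUSG00000036899.10), the channel of calcium entry, did not overlap between NMN and water mice at 1340 mg/kg/d. It measured 12.4, 15.1, 12.1 and 11.1 CPM in the 4 water mice and 19.4, 19.0, 17.3 and 18.4 CPM in the 4 NMN mice. Every NMN mouse was above every water mouse, and the NMN mice lay within a narrow range. The log2 fold change was 0.55 (SE 0.14, 95% interval 0.28 to 0.82), with an adjusted p of 0.132 in edgeR and of 0.0276 in DESeq2. Its p ranked 108 among 14972 genes tested by edgeR, which called 0.12% of them, and DESeq2 called 0.969% of the 16204 genes it tested. In the other schedule Trpv5 measured 19.4, 21.2 and 22.1 CPM with water and 26.7, 22.4 and 21.4 CPM with NMN. These groups overlapped. The log2 fold change was 0.17 (SE 0.11, edgeR adjusted p = 0.620), or 0.063 to 0.24 with 1 mouse left out in turn. With 1 NMN coefficient over both schedules it was 0.37 (SE 0.09, edgeR adjusted p = 0.0518, DESeq2 adjusted p = 0.0129). The change in the fitted difference from the lower to the higher schedule was -0.38 (SE 0.18), with an edgeR p of 0.0412 before and 0.999 after adjustment, so a difference between the schedules was not detectable over all genes. None of the 10 was called for such a difference, beside 0.00625% of all genes.

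The calbindins buffer calcium and ferry it across the cell. Calb1 (calbindin-D28k, ENSMUSG00000028222.2) ranged from 316 to 429 CPM in the water mice and from 318 to 467 CPM in the NMN mice at 1340 mg/kg/d, a log2 fold change of 0.09 (SE 0.12). It ranged at 2680 mg/kg/d from 371 to 428 CPM with water and from 407 to 593 CPM with NMN, a log2 fold change of 0.24 (SE 0.14). The groups overlapped in both schedules, and without NMN mouse 1 at 2680 mg/kg/d the latter value was 0.050. S100g (calbindin-D9k, ENSMUSG00000040808.4) measured 381, 341, 422 and 401 CPM with water and 488, 317, 390 and 317 CPM with NMN at 1340 mg/kg/d, and the water values lay within the range of the NMN values. With the higher dose, 2680 mg/kg/d, it measured 574, 523 and 562 CPM with water and 537, 378 and 456 CPM with NMN. Among the 10 genes S100g had the lowest fold change there, at -0.27 on the log2 scale (SE 0.12, edgeR adjusted p = 0.420), and the highest NMN mouse overlapped the water mice. With 1 mouse left out in turn it ranged from -0.41 to -0.15.

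The genes of basolateral calcium exit, the exchanger and the pump, had fitted differences of opposite sign at 2680 mg/kg/d. Slc8a1 (NCX1, ENSMUSG00000054640.14) measured 27.3, 21.4, 18.8 and 14.8 CPM with water and 33.8, 39.1, 23.7 and 26.9 CPM with NMN at 1340 mg/kg/d. The groups overlapped, since the highest water mouse lay above the 2 lowest NMN mice. The log2 fold change was 0.59 (SE 0.19, edgeR adjusted p = 0.338). Slc8a1 at 2680 mg/kg/d measured 28.1, 26.7 and 26.8 CPM with water and 32.7, 31.1 and 28.3 CPM with NMN, without overlap but by a small margin, a log2 fold change of 0.18 (SE 0.09, edgeR adjusted p = 0.505). Over both schedules it was 0.40 (SE 0.13, edgeR adjusted p = 0.147). Slc8a1 shares 1.57% of its exon bases with an antisense gene, and the counts ignore strand. Atp2b1 (PMCA1, ENSMUSG00000019943.10) differed by only 0.02 on the log2 scale at 1340 mg/kg/d (SE 0.10), with 74.7 to 92.8 CPM in water and 72.0 to 92.0 CPM in NMN mice. In the 2680 mg/kg/d schedule it measured 66.4, 62.8 and 68.1 CPM with water and 61.0, 60.0 and 56.0 CPM with NMN. Every NMN mouse was below every water mouse there, at a log2 fold change of -0.15 (SE 0.08, edgeR adjusted p = 0.499).

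**Figure D2:**
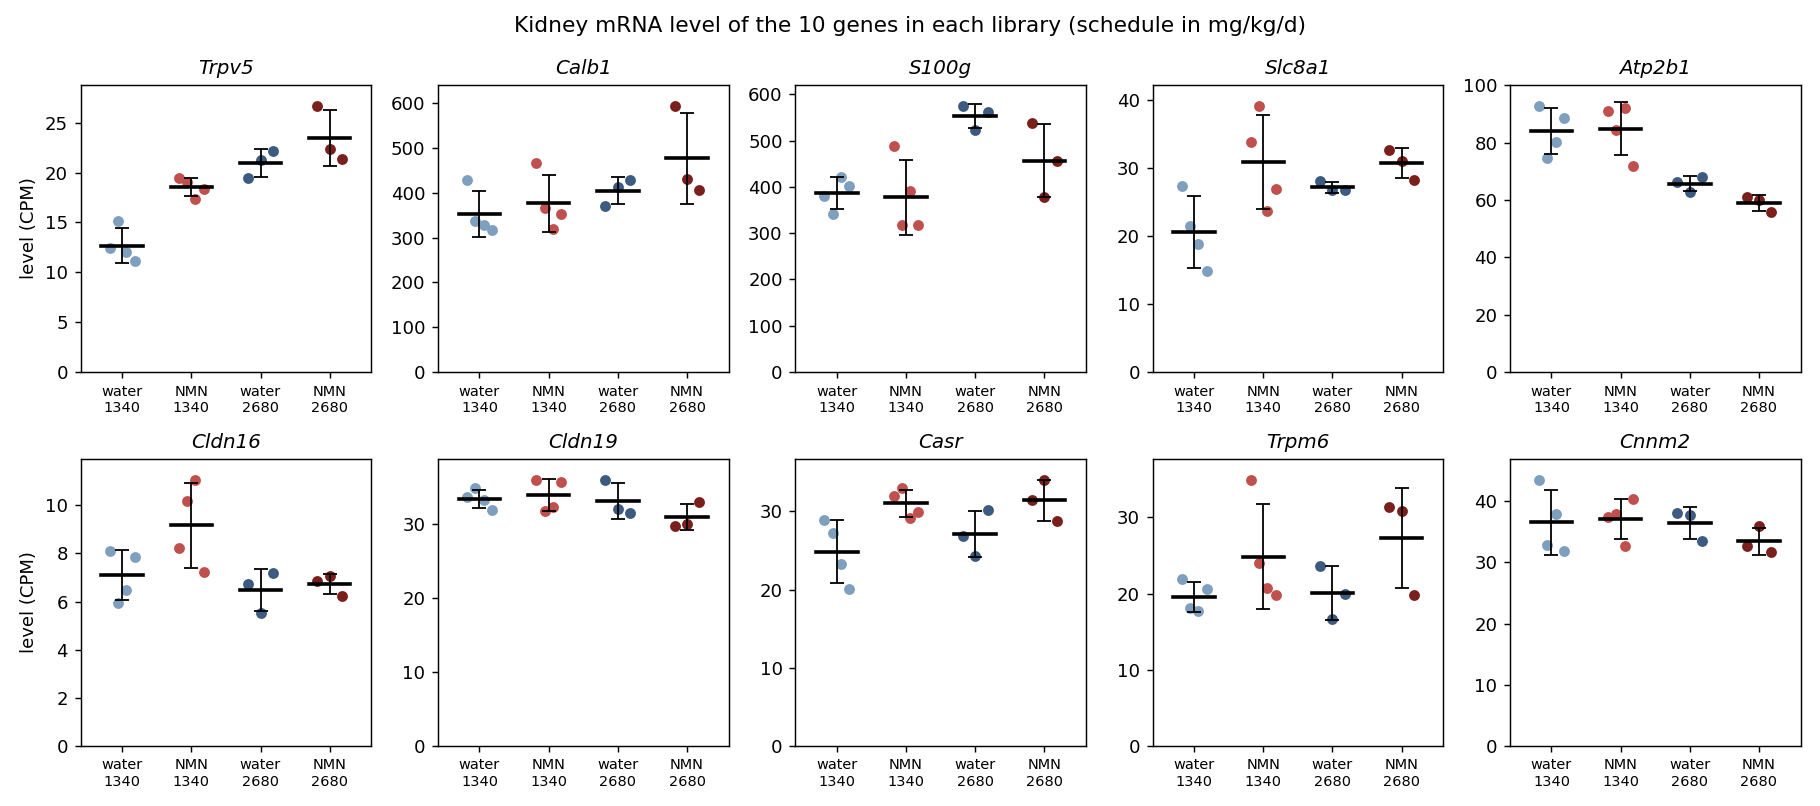
Level of the 10 genes (CPM, axes from 0) in every kidney library, with points for mice, long bars for group means and whiskers for the SD. Trpv5 and Casr do not overlap between water and NMN mice at 1340 mg/kg/d, and Slc8a1 and Atp2b1 do not overlap at 2680 mg/kg/d.

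The receptor and the pore claudins are known from the thick ascending limb, and none of them passed the test with NMN. Casr (ENSMUSG00000051980.13) measured 28.9, 27.2, 23.2 and 20.1 CPM with water and 32.0, 33.0, 29.2 and 29.9 CPM with NMN at 1340 mg/kg/d. The groups did not overlap, though the highest water and the lowest NMN mouse were close. The log2 fold change was 0.32 (SE 0.12, edgeR adjusted p = 0.432). The same gene at 2680 mg/kg/d measured 26.9, 24.3 and 30.2 CPM with water and 31.4, 34.0 and 28.7 CPM with NMN, a log2 fold change of 0.21 (SE 0.11), and 1 NMN mouse lay below the highest water mouse. Over both schedules the value was 0.27 (SE 0.08, edgeR adjusted p = 0.115). Cldn16 (ENSMUSG00000038148.13) was the gene with the fewest reads, between 86 and 195 counts per library. It ranged from 5.94 to 8.09 CPM with water and from 7.22 to 11.1 CPM with NMN at 1340 mg/kg/d, a log2 fold change of 0.37 (SE 0.19, edgeR adjusted p = 0.583), and differed by 0.05 (SE 0.16) at 2680 mg/kg/d. Cldn19 (ENSMUSG00000066058.11), the partner of claudin-16 in the pore, stayed between 29.7 and 35.9 CPM in all 14 kidney libraries. Its log2 fold changes were 0.02 (SE 0.10, 95% interval -0.17 to 0.21) and -0.09 (SE 0.09, 95% interval -0.28 to 0.09). It shares 2.11% of its exon bases with an antisense gene. Per length, Cldn19 stood at 1.32 ± 0.233 times the Cldn16 level in the water mice and at 1.05 ± 0.267 times in the NMN mice at 1340 mg/kg/d (SD, n = 4 each), so the ratios differed by about their spread.

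Of the magnesium genes, the channel had a positive fold change in both schedules and Cnnm2 stayed near 0. Trpm6 (ENSMUSG00000024727.8) measured 21.9, 18.2, 17.8 and 20.5 CPM with water and 34.9, 24.1, 20.7 and 19.8 CPM with NMN at 1340 mg/kg/d. A single NMN mouse was far above the rest, and without it the log2 fold change dropped from 0.34 (SE 0.16) to 0.14. In the 2680 mg/kg/d schedule Trpm6 measured 23.6, 16.6 and 19.95 CPM with water and 31.4, 30.9 and 19.7 CPM with NMN. Here 2 NMN mice were above all water mice and the last was among them, at a log2 fold change of 0.45 (SE 0.20, edgeR adjusted p = 0.470). Over both schedules the value was 0.39 (SE 0.13, edgeR adjusted p = 0.185). Cnnm2 (ENSMUSG00000064105.12) ranged from 31.8 to 43.5 CPM over all 14 kidney libraries, with log2 fold changes of 0.02 (SE 0.12) and -0.12 (SE 0.09).

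Across the list, 9 of the 10 genes had a fitted log2 fold change above 0 at 1340 mg/kg/d, against 50.3% of all genes tested, and their median was 0.21 against 0.00 for all genes. At 2680 mg/kg/d 6 of 10 were above 0, against 50.8%, with a median of 0.11. The 6 that were above 0 in both schedules were Trpv5, Calb1, Slc8a1, Cldn16, Casr and Trpm6, against 29.5% of all genes. An unadjusted p under 0.05 in edgeR was reached by 4 of the 10 at 1340 mg/kg/d (Trpv5, Slc8a1, Casr and Trpm6), where 8.94% of all genes reached it, and by S100g alone at 2680 mg/kg/d, where 11.1% did, while over both schedules it was reached by 4 of 10 (Trpv5, Slc8a1, Trpm6 and Casr) beside 13% of all genes. NMN and water mice did not overlap for 2 of the 10 at 1340 mg/kg/d, where 5.04% of genes did not, and for another 2 at 2680 mg/kg/d, where 16.9% did not. None of the 10 was without overlap in both schedules, whereas 1.33% of all genes were, with the same direction in both. After adjustment edgeR called 0 of the 10 in each schedule and over both, where it called 0.12%, 0.4% and 1.28% of all genes. DESeq2 called Trpv5 at 1340 mg/kg/d, none of the 10 at 2680 mg/kg/d (1.53% of all genes), and Trpv5 over both schedules (3.28%).

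**Figure D3:**
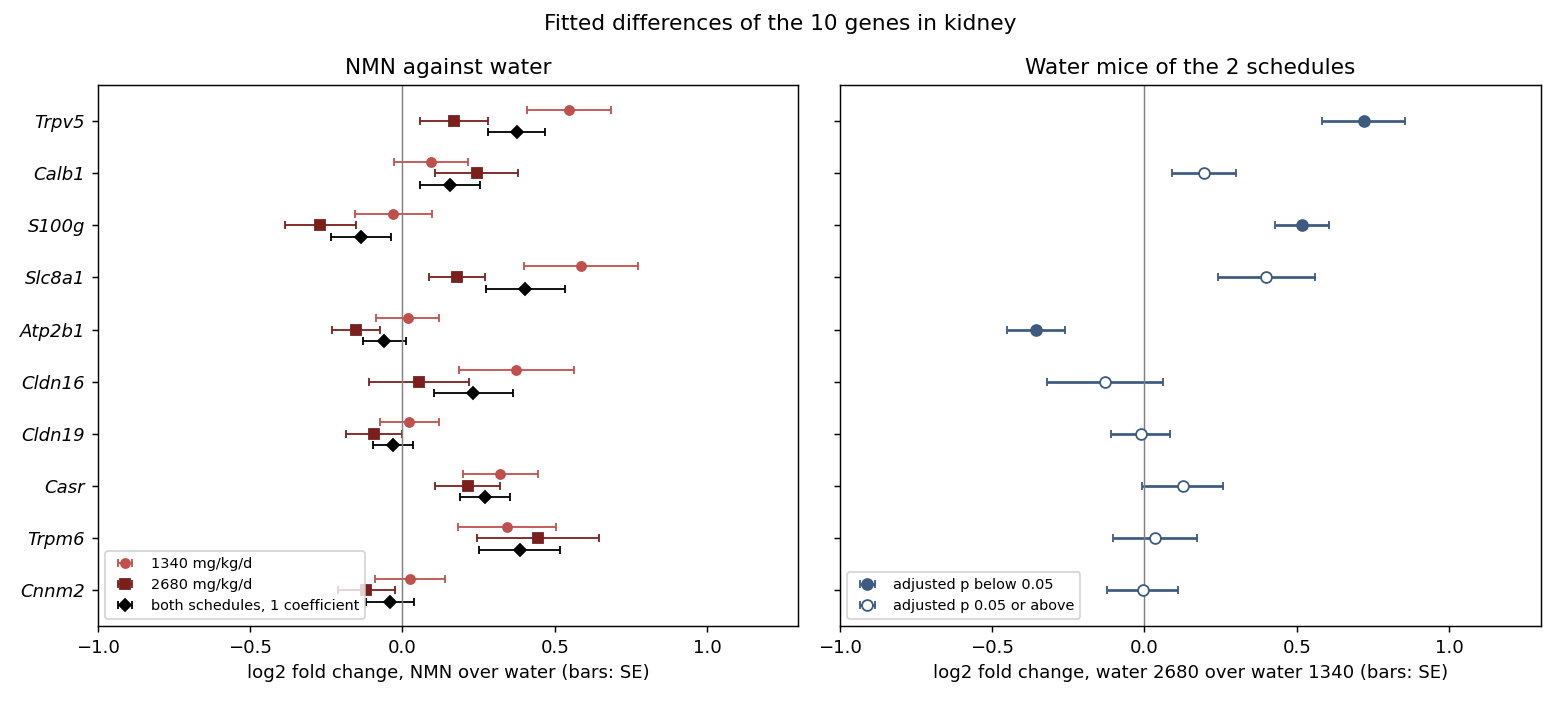
Fitted log2 fold changes of the 10 genes with their SE, NMN over water on the left (each schedule, and 1 coefficient for both) and 2680 over 1340 mg/kg/d water mice on the right. Trpv5 and Slc8a1 lie farthest to the right at 1340 mg/kg/d, and filled points on the right mark Trpv5, S100g and Atp2b1, which passed an adjusted p under 0.05.

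Between the water mice of the schedules edgeR called 3 of the 10 genes, beside 18.3% of all 15267 genes tested. Trpv5 averaged 12.7 ± 1.73 CPM (SD, n = 4) in the 1340 mg/kg/d water mice and 20.9 ± 1.39 CPM (SD, n = 3) in the 2680 mg/kg/d water mice, a log2 fold change of 0.72 (SE 0.14, edgeR adjusted p = 0.00168). The lowest Trpv5 value of the latter, 19.4 CPM, was level with the highest of the NMN mice at 1340 mg/kg/d. S100g was higher by 0.52 on the log2 scale (386 ± 34.4 against 553 ± 26.5 CPM, SE 0.09, edgeR adjusted p = 0.000857), and Atp2b1 was lower, at -0.36 (84.1 ± 8.13 against 65.8 ± 2.68 CPM, SE 0.09, edgeR adjusted p = 0.0150). The 3 genes were without overlap between these groups. The other 7 genes did not pass, with log2 fold changes from -0.13 for Cldn16 to 0.40 for Slc8a1. The share without overlap was thus 3 of 10, beside 29.6% of all genes. The Atp2b1 call was lost (adjusted p = 0.0829) without water mouse 2 of the 2680 mg/kg/d schedule, and Calb1 and Slc8a1 passed (adjusted p = 0.0123 and 0.00566) without water mouse 1 of the 1340 mg/kg/d schedule.

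These libraries differed in other respects too. Mitochondrially encoded genes took 9.71% of the counts in the 1340 mg/kg/d water mice and 20.6% in the 2680 mg/kg/d water mice, and reads without a unique position were 11.1% and 19.6%. The 5 adipocyte markers summed to 13.6 ± 9.91 CPM and 113 ± 24.2 CPM, with all 5 called higher and Adipoq the most abundant in the latter at 35.2 CPM. Of 6 hepatocyte markers 4 were lower, among them Alb at -2.90 on the log2 scale, and the sum was 249.4 against 167.8 CPM, most of the latter from Ttr. With the mitochondrial genes removed, Trpv5, S100g and Atp2b1 were still called. The 6 distal convoluted tubule markers summed to 2321 ± 109.6 and 1883 ± 145 CPM, without overlap. Markers of the connecting tubule and principal cells summed to 673.7 ± 91.6 and 594 ± 28.6 CPM, also without overlap. Proximal and thick limb sums were lower too but overlapped. Intercalated cell markers were higher, at 318.4 ± 15.5 and 347.3 ± 4.44 CPM, without overlap. The part of fat, of the mitochondrial share, of segment content or of library preparation in the differences of the 10 genes was not tested. The schedule cannot be told apart from these differences between the libraries.

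The summed markers of the thick limb and the distal convoluted tubule differed with NMN at 1340 mg/kg/d in the direction of several of the 10 genes, though a few abundant markers made up most of the sums. The 6 thick limb markers summed to 3459, 3579, 3319 and 3008 CPM with water and 4076, 4234, 3851 and 4307 CPM with NMN, with no overlap. The 6 distal convoluted tubule markers, which include Egf, summed to 2321 ± 109.6 CPM with water and 2830 ± 43.9 CPM with NMN (SD, n = 4 each), also with no overlap, and 9 proximal tubule markers to 11720 ± 927 and 9919 ± 511 CPM, with no overlap and in the other direction. The distal sum was thus 1.22 times and the thick limb sum 1.23 times the water value, beside fitted folds of 1.46 for Trpv5 and 1.25 for Casr. Most of the difference in the distal sum came from Egf (1141 against 1525 CPM) and most of that in the thick limb sum from Umod (2111 against 2592 CPM) and Slc12a1 (791 against 1063 CPM). Pvalb (19.95 against 16.7 CPM) and Cldn10 (186.7 against 172.7 CPM) had lower means with NMN. The median log2 fold change was 0.15 over the distal and 0.22 over the thick limb markers, and 5 of 6 were above 0 in each list. None of these markers passed an adjusted p under 0.05 singly in edgeR in that schedule. At 2680 mg/kg/d the thick limb sums were 2960 ± 328 and 3144 ± 231 CPM and the distal sums 1883 ± 145 and 2056 ± 209 CPM, which overlapped, while the proximal sums of 10730 ± 422 and 8955 ± 1186 CPM did not (SD, n = 3 each). Over both schedules edgeR called 3 of the 9 proximal markers, beside 1.28% of all genes, and all 3 were lower with NMN. These were the glucose transporter Slc5a2 (-0.59), the organic anion transporter Slc22a30 (-0.52) and the phosphate transporter Slc34a1 (-0.32). Trpv5 and the calbindins are also expressed in the connecting tubule. The summed 7 markers of that segment and of principal cells differed by 7.97% at 1340 and 3.87% at 2680 mg/kg/d with overlapping groups. Sums of podocyte and endothelial markers were also higher with NMN, though with overlapping groups. The 5 podocyte markers were 24.0% higher at 1340 and 21.0% higher at 2680 mg/kg/d, with a median log2 fold change of 0.33 in both, and the 5 endothelial markers 16.4% and 3.74% higher. None of these 10 podocyte and endothelial markers passed singly in edgeR in either schedule or over both. The 6 intercalated cell markers were 1.76% higher at 1340 mg/kg/d, with overlap. At 2680 mg/kg/d they summed to 347.3 ± 4.44 CPM with water and 393.9 ± 34.6 CPM with NMN, without overlap. Over both schedules edgeR called 1 of these 6 higher, beside 1.28% of all genes. No value here separates more distal tubule in a sample from more mRNA per distal cell, and the part of segment content in the values of the 10 genes was not tested.

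**Figure D4:**
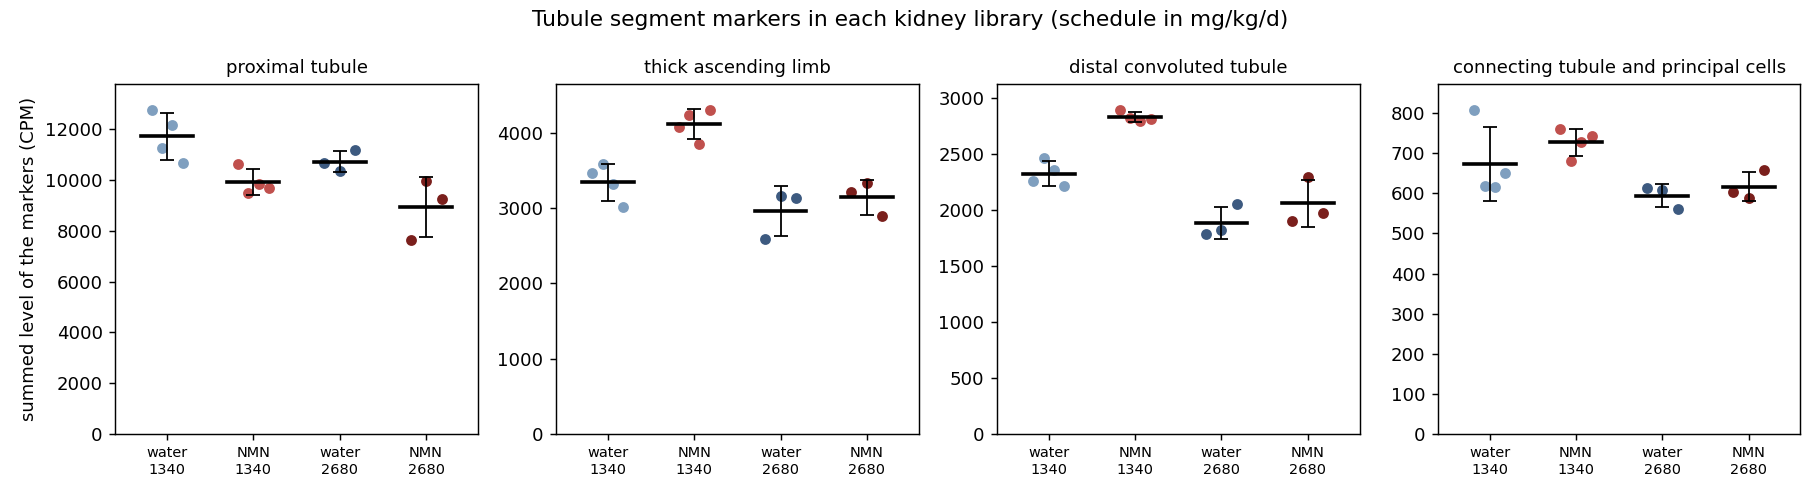
Summed level (CPM, axes from 0) of the markers of 4 tubule segments in every kidney library, with points for mice, long bars for group means and whiskers for the SD. At 1340 mg/kg/d the proximal sums of all NMN mice lie below those of all water mice, and the thick limb and distal convoluted tubule sums above.

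Among other genes of calcium transport, none of the 14 tested at 1340 mg/kg/d, the 13 tested at 2680 mg/kg/d or the 14 over both schedules was called by edgeR, and the medians were 0.09, 0.18 and 0.13 on the log2 scale. Trpv6, the intestinal relative of Trpv5, stood at 2.13 ± 0.407 CPM with water and 2.45 ± 0.380 CPM with NMN at 1340 mg/kg/d. Its log2 fold change was 0.63 (SE 0.32) at 2680 mg/kg/d, or 0.36 to 0.82 with 1 mouse left out in turn. Itpr1, a calcium release channel of the endoplasmic reticulum, had 0.31 (SE 0.12, edgeR adjusted p = 0.432) and 0.05 (SE 0.08). Stim1, the sensor of the calcium store, had 0.25 (SE 0.18) and 0.30 (SE 0.12, edgeR adjusted p = 0.365). The Stim1 value at 1340 mg/kg/d ranged from 0.15 to 0.42 with 1 mouse left out in turn. Slc8a3, and at 2680 mg/kg/d also Slc8a2, were too low for a test. The mitochondrial exchanger gene Slc8b1 was the 1 of 13 tested that passed between the water mice, lower at -0.74 on the log2 scale (SE 0.22, edgeR adjusted p = 0.0285) in the 2680 mg/kg/d schedule, beside 18.3% of all genes.

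Of 18 hormonal and other regulators of calcium transport, none was called in either schedule or over both, with medians of 0.01, 0.06 and 0.04. Stc1, the hormone stanniocalcin-1, stood at 5.29 ± 1.07 CPM with water and 7.53 ± 2.61 CPM with NMN at 1340 mg/kg/d and at 3.65 ± 1.03 and 6.79 ± 2.51 CPM at 2680 mg/kg/d. Its log2 fold change over both was 0.67 (SE 0.20, edgeR adjusted p = 0.111, DESeq2 adjusted p = 0.0439). Umod, whose product uromodulin is the main protein of urine and keeps TRPV5 at the cell surface, had log2 fold changes of 0.30 (SE 0.10, no overlap) and 0.18 (SE 0.12), with an edgeR adjusted p of 0.132 over both. Its value at 2680 mg/kg/d ranged from 0.041 to 0.26 with 1 mouse left out in turn. Vdr, the vitamin D receptor, did not differ at 1340 mg/kg/d by more than its error (-0.03, SE 0.11). It had 0.24 (SE 0.08, edgeR adjusted p = 0.256) at 2680 mg/kg/d, where every NMN mouse was above every water mouse. Without overlap were 1 of the 18 at 1340 mg/kg/d (5.04% of all genes) and 2 at 2680 mg/kg/d (16.9%). Between the water mice of the schedules, 5 of the 18 passed, beside 18.3% of all genes. Calm2 (0.36) and the tissue kallikrein gene Klk1 (0.43) were higher, and Sgk1 (-1.14), Gnas (-0.49) and the parathyroid hormone receptor gene Pth1r (-0.42) were lower in the 2680 mg/kg/d schedule.

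Among 12 genes of thick limb salt transport and tight junctions, 10 were tested at 1340 mg/kg/d and none was called. Slc12a1, the sodium-potassium-chloride cotransporter that drives the paracellular route, measured 791 ± 88.4 CPM with water and 1063 ± 98.9 CPM with NMN at 1340 mg/kg/d. It was the 1 of the 10 tested there that did not overlap, beside 5.04% of all genes. Slc12a1 had a log2 fold change of 0.43 (SE 0.10, edgeR adjusted p = 0.117, DESeq2 adjusted p = 0.0117). Its value at 2680 mg/kg/d was -0.04 (SE 0.11), and the difference between the schedules of -0.47 had an edgeR p of 0.00750 before and 0.999 after adjustment. Cldn3, another claudin, had -0.01 (SE 0.18) and 0.51 (SE 0.14, edgeR adjusted p = 0.178). In the comparison of the water mice 3 of 11 tested passed, beside 18.3% of all genes. The prostaglandin receptor gene Ptger3 (0.50) and Cldn10 (0.39) were higher and the potassium channel gene Kcnj1 (-0.46) was lower in the 2680 mg/kg/d schedule.

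Of 23 other genes of magnesium handling, 22 were tested and none was called by edgeR in either schedule or over both, with medians of 0.12, 0.05 and 0.08. Egf, whose product stimulates TRPM6, measured 1141 ± 131 CPM with water and 1525 ± 88.9 CPM with NMN at 1340 mg/kg/d without overlap, a log2 fold change of 0.42 (SE 0.10, edgeR adjusted p = 0.111, DESeq2 adjusted p = 0.00723). The value at 2680 mg/kg/d was 0.27 (SE 0.17), or 0.11 without water mouse 1, and over both it was 0.35 (SE 0.09, edgeR adjusted p = 0.0569, DESeq2 adjusted p = 0.0143). The magnesium carriers Slc41a1 and Slc41a2 had 0.35 (SE 0.15) and 0.22 (SE 0.12) at 1340 mg/kg/d and 0.38 (SE 0.12) and 0.36 (SE 0.11) at 2680 mg/kg/d, where neither overlapped. Over both schedules their edgeR adjusted p was 0.0790 and 0.0955, and DESeq2 called both, beside 3.28% of all genes. Without overlap were 1 of the 22 at 1340 mg/kg/d (5.04% of all genes) and 5 at 2680 mg/kg/d (16.9%). Egf is at the same time a distal convoluted tubule marker and Slc12a1 and Umod are thick limb markers, so their values are part of the sums given above. Between the water mice of the schedules 5 of the 22 passed, beside 18.3% of all genes, with Fxyd2, a subunit of the sodium pump, higher (0.55) and Magt1, Cnnm4, Egf and Pcbd1 lower (-0.78, -0.78, -0.59 and -0.30) in the 2680 mg/kg/d schedule. Trpm6 and Cnnm2 had 0.03 (SE 0.14) and -0.01 (SE 0.12) in that comparison, which shares its water mice with the comparisons of NMN.

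The 10 genes also varied from mouse to mouse within a group. Water mouse 1 of the 1340 mg/kg/d schedule was the highest of its 4 for 7 of the 10 genes, and water mouse 4 the lowest for 6. At 2680 mg/kg/d NMN mouse 1 was the highest of 3 for 6 genes and NMN mouse 3, which had the deepest library at 33872983 counts, the lowest for 8. Over the 14 kidney libraries, the deviations of log2 CPM from the group means ran closest for Atp2b1 and Cldn16 (Pearson's r = 0.81) and for Slc8a1 and Casr (r = 0.78). The most opposed pair was Cldn16 and Cldn19 (r = -0.56). All members of a pair share library and depth, and these values are given as descriptions. Of 13933 genes compared in the same way, Sgms1 (0.88), Ifih1 (0.87) and Scarb2 (0.86) ran closest to Trpv5, Thap7 (0.91), Ephb2 (0.91) and Hgh1 (0.90) to Cldn16, and Decr1 (0.93), Rnf138 (0.92) and Cops2 (0.92) to Trpm6. None of these 9 genes was called with NMN in either schedule by edgeR, the lowest adjusted p being 0.354 for Ephb2 at 2680 mg/kg/d.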

How the data were processed

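Poly(A) RNA of liver and kidney was sequenced in 28 libraries. The deposited values are raw read counts per gene, which the authors obtained from STAR alignments with HTSeq-count (strict intersection, without strand). No genome of the build that the article names was at hand, so gene coordinates are not given, and the promoters are those of RefSeq for GRCm38.p6. Symbols came from GENCODE M21 (53229 of 54446 identifiers matched with their version, 1180 without). The 14 kidney libraries held 13174264 to 33872983 counted reads, and the 5 summary lines of HTSeq were left out. The libraries carry no molecular identifiers, so the reads are not independent molecules and a limit from 0 counts covers counting error only.

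The members of the list, the other lists and the markers were chosen with earlier results of these data known. Counts were tested in R 4.3.3 with edgeR 4.0.16 (filterByExpr, TMM, robust quasi-likelihood test, Benjamini-Hochberg adjustment over all genes of a fit, threshold 0.05). The fits compared NMN with water within each schedule, over both schedules with schedule as a term, as an interaction, and the water mice of the schedules with each other. DESeq2 1.42.0 was an alternative. The CPM of a library was scaled by TMM over the 14 libraries of its organ. Replicates are mice by the study's account, and replicate numbers were not used to pair them. The genes named are the 10 members, every called gene of the other lists with NMN, the 2 genes of each list with the smallest p in each schedule, and the 3 genes that ran closest to Trpv5, Cldn16 and Trpm6 (at least 1 CPM, log2 CPM with a prior count of 2). A result that this rule names is not reported here. Genes called between the water mice, and the markers, were named in addition after their values were seen. The edgeR and DESeq2 steps were tested on simulated data. Other settings tried were 2 other normalizations, a minimum of 10 counts per library, no filter, no robust option, thinning to the smallest library, mitochondrial genes removed, all 14 kidney libraries in one fit, the replicate number as a block, and each mouse left out in turn. How members overlapped between groups under other scalings was added after seeing the data.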

Additional observations from a re-analysis of the deposited data

Results flagged for a closer look

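In 50 groups of 4 kidney libraries checked for a value far from the others (Dixon's ratio above its 95% critical value, which chance exceeds in about 1 in 20 groups), none of the 10 genes stood out. The adipocyte markers of NMN mouse 3 at 1340 mg/kg/d did, at a sum of 37.0 CPM.

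The liver libraries were not part of the kidney comparisons. In the liver of NMN mouse 1 at 2680 mg/kg/d, S100g had 59 counts and Calb1 10, where the highest water liver of that schedule had 5 and 0. In the liver of NMN mouse 3 of that schedule Trpm6 had 5 counts, against at most 1 with water. In the livers of the 1340 mg/kg/d schedule, Calb1 had 6 to 15 counts, S100g 6 to 14 and Trpm6 0 to 5, so that only the S100g value lay above all of these. The source of these reads was not tested.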

How the results depend on the processing

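Of the 10 genes, none was called with NMN within a schedule in edgeR under any other normalization, thinning, the robust option, the block or removal of mitochondrial genes, and the number without overlap between NMN and water mice was 2 in each schedule under all 4 other scalings (added after seeing the data). DESeq2 called 157, 236, 509 and 11 genes at 1340, at 2680, over both schedules and as interaction, and 1 member (Trpv5) at 1340 and over both. Without a filter edgeR called 269, 514, 771 and 106 genes, with 2 members at 1340 (Trpv5 and Slc8a1), 1 at 2680 (Trpm6) and 3 over both, and among the other genes named Egf, Slc12a1, Slc41a1, Slc41a2, Stc1, Cldn3 and Umod passed in at least 1 of these fits. Without the robust option 5 genes were called at 1340 and 0 as interaction, which was 0 too with the upper quartile and with at least 10 counts in every library, and all 14 kidney libraries in one fit gave 35 at 2680. Over both schedules 1 member, Trpv5, was called in edgeR with at least 10 counts in every library (adjusted p = 0.0468) and with mitochondrial genes removed (adjusted p = 0.0488). The main fit over both schedules called 204 of 15989 genes (1.28%), none of them a member. The cause of these shifts was not tested. Between the water mice the fold changes of Cnnm2 and Cldn19 were next to 0 and changed sign, for Cnnm2 to 0.0029 (DESeq2), 0.0028 (DESeq2 size factors), 0.0099 (upper quartile), 0.0089 (no filter) and 0.0022 (mitochondrial genes removed), and for Cldn19 to 0.0037 (upper quartile), 0.0023 (no filter) and 0.014 (thinned).

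Under the replicate block edgeR called 75 genes at 1340, 92 at 2680 and 2 as interaction. Over both schedules it called 1 member (Slc8a1, adjusted p = 0.0490), where the main fit called 1.28% of all genes. Of the other genes named, Egf and Slc12a1 passed at 1340 with the block (adjusted p = 0.0460 and 0.0432), and Egf and Slc41a1 over both schedules (adjusted p = 0.0134 and 0.0286). Between the water mice Umod passed in edgeR with the block (adjusted p = 0.00947) and without a filter (adjusted p = 0.0106). Slc8a1 passed there without a filter (adjusted p = 0.0141). Deviations of same-numbered mice from their group means correlated by 0.098, 0.11, -0.067 and 0.0051 at 1340 and by 0.032, -0.0076 and 0.030 at 2680. Pairs of other numbers ranged from -0.15 to 0.11 at 1340 and from -0.089 to 0.075 at 2680. So few pairs with values this small cannot show whether same-numbered mice had anything in common beyond the number.

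With 1 mouse left out in turn, 5 to 67 genes were called at 1340, 3 to 191 at 2680, 100 to 290 over both, 0 to 1 as interaction and 1632 to 2880 between the water mice. No member was called in a single schedule, 0 to 1 over both (Trpv5, without water mouse 2 at 1340 or NMN mouse 2 or 3 at 2680) and 2 to 5 between the water mice. The sign of some fitted differences changed. At 1340 the log2 fold change ranged from -0.022 to 0.21 for Calb1, -0.17 to 0.047 for S100g, -0.033 to 0.089 for Atp2b1, -0.0020 to 0.049 for Cldn19, -0.037 to 0.13 for Cnnm2, -0.15 to 0.12 for Cldn3 and -0.15 to 0.024 for Vdr. At 2680 it ranged from -0.046 to 0.14 for Cldn16, -0.014 to 0.077 for Itpr1 and -0.16 to 0.062 for Slc12a1, and over both from -0.077 to 0.010 for Cnnm2. As interaction it ranged from -0.040 to 0.27 for Calb1, -0.018 to 0.31 for Trpm6, -0.10 to 0.14 for Slc41a1 and -0.13 to 0.14 for Stim1. Between the water mice it ranged from -0.10 to 0.16 for Trpm6, -0.074 to 0.027 for Cldn19, -0.068 to 0.10 for Cnnm2, -0.057 to 0.064 for Slc12a1, -0.010 to 0.15 for Stim1 and -0.057 to 0.013 for Vdr. Among the 10 genes Cldn16 had the lowest count in a kidney library, 86, which limits its precision.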
